A study of Mus musculus with 4 samples.

Results

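Entry into the DNA synthesis phase of the cell cycle was examined in neurospheres and embryonic stem (ES) cells through 10 genes. These were the D-type cyclins Ccnd1, Ccnd2 and Ccnd3, the kinases Cdk4 and Cdk2, cyclin E1 (Ccne1), the kinase inhibitors Cdkn1a and Cdkn1b, the stress gene Gadd45a and the tumour suppressor Trp53. All probe sets of the array whose only gene symbol in the platform annotation was 1 of these were taken, which gave 14 of 12422 probe sets other than controls. Ccnd1, Cdk4, Cdk2, Cdkn1a and Cdkn1b had 2 probe sets each, and Ccnd2, Ccnd3, Ccne1 and Gadd45a had 1 each. No probe set carried Trp53 as its only symbol, so 9 of the 10 genes were measured.

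Total RNA was hybridised to 4 Affymetrix MG_U74Av2 arrays. The neurosphere array (1 array) came from cultures of the mouse telencephalon at E13.5, grown in DMEM and F12 with FGF2, and its labels list astrocytes, glia and oligodendrocytes as contaminating cells. The embryoid body arrays (2 arrays) came from R1 cells, an established mouse ES line, kept unattached for 48 hours in DMEM with LIF and beta-mercaptoethanol. One is titled aggregation and the other suspension, and they carry the same sample identifier. The adherent array (1 array) came from R1 cells on gelatin in the same medium and supplements. No genotype, strain or animal number is given in the labels used here. The spread comes from the embryoid body arrays alone, and nothing says that these were separate cultures, so p-values measure a spread that may be technical.

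Mitogens raise the D-type cyclins, which bind and activate Cdk4 and its relative Cdk6. These kinases phosphorylate the retinoblastoma protein and release E2F factors, which switch on Ccne1 and other genes of DNA replication, and cyclin E then activates Cdk2. Cdkn1a (p21) and Cdkn1b (p27) inhibit cyclin-Cdk complexes. Cdkn1a and Gadd45a are targets of the transcription factor p53, which Trp53 encodes. Mouse ES cells are known for a short G1 phase with high Cdk2 activity and low levels of D-type cyclins.

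The deposited arrays had trimmed means of 29.9 for neurospheres, 33.0 for aggregation, and 1501 for both suspension and adherent cells, so each was scaled to a trimmed mean of 500. After scaling, the 10th percentile of signal was 33.8 in neurospheres, 29.5 and 33.7 in embryoid bodies, and 17.4 in adherent cells. Between aggregation and suspension, log2 values had r = 0.89 across 8031 probe sets, which are not independent replicates. Adherent cells had nearly the same r, 0.87, with each of these arrays, and neurospheres had 0.63 to 0.66 with the R1 arrays. All 8 ES cell marker genes tested had a probe set called lower in neurospheres, where 11.6% of all probe sets were lower and 8.09% higher. A second Pou5f1 probe set, 161159_r_at, was not called, with 277 in neurospheres, 262 and 196 in embryoid bodies, and 99.5 in adherent cells. The brightest probe sets of these genes summed to 1722 in neurospheres, against 37950 and 48720 in embryoid bodies and 46841 in adherent cells. Of 7 neural progenitor marker genes tested, 5 were higher and 0 lower in neurospheres, with sums of 54018 in neurospheres, 1719 and 1247 in embryoid bodies, and 990.1 in adherent cells. Fabp7 alone gave 41867 of the neurosphere sum. Fabp7, Ptprz1 and Hes5 reached the array median on the neurosphere array alone. The called probe sets of Pou5f1, Nanog, Zfp42, Klf4 and Nr0b1 reached it on the R1 arrays alone. The calls of all these genes therefore only describe the arrays. Sox1 and Msi1 were not called, with log2 differences of 1.37 (limma adjusted p 0.188) and 0.37 (0.772). These lists thus set the neurosphere array apart from the R1 arrays. None of their probe sets was called between embryoid bodies and adherent cells. Only 0.349% of all probe sets were called there, so the absence of calls is not particular to these markers. No marker was at exactly 0 on any array.

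Neurospheres were first set against the R1 arrays, with embryoid bodies (their mean) and adherent cells weighted equally. Of the 13 member probe sets that passed the signal filter, 3 were higher in neurospheres and 2 were lower at a limma adjusted p under 0.05. The higher ones measured Ccnd1, Ccnd2 and Cdkn1a, and the lower ones measured Cdk2 and Gadd45a. Ccnd3 and Cdk4 differed little between the cultures. Over all 8031 probe sets tested, 650 (8.09%) were higher and 935 (11.6%) were lower, so the share of members that were lower was close to the background. Ccnd2 passed the filter through the neurosphere array alone, and both Cdk2 probe sets passed it through the R1 arrays alone. These counts therefore only describe the members. The median difference on the log2 scale was 0.16 over the 13 member probe sets and 0.10 over all 8031. A fit of 2 groups, neurospheres and all R1 arrays, gave 436 higher and 642 lower over all probe sets, with 3 and 2 members. Leaving out an array needs this 2-group fit: without aggregation the counts were 315 and 460, with 2 and 2 members, and without suspension 378 and 515, with 3 and 2 members. On the 2 arrays deposited on the low scale, neurospheres minus aggregation was 3.65 for Ccnd1 (94232_at), 4.25 for Ccnd2, -2.10 for Cdk2 (94412_at) and -1.89 for Gadd45a on the log2 scale. Scaling to the median instead of the trimmed mean moved the median of all probe sets to -0.13, and the calls were then 542 higher and 1371 lower. In these bulk cultures, fewer cells of a type and less RNA per cell cannot be told apart.

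**Figure D1:**
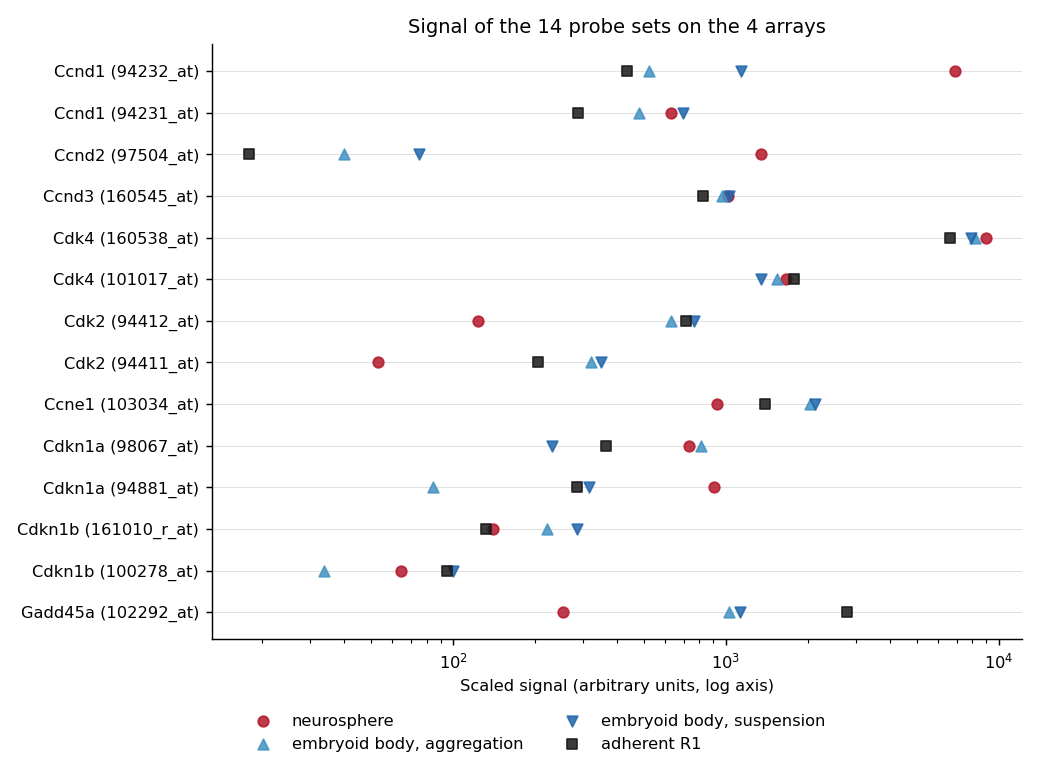
Scaled signal of the 14 member probe sets on a log axis, with 1 point per array for neurospheres, the aggregation and suspension embryoid bodies, and adherent R1 cells. The neurosphere point stands far right of the R1 points for Ccnd1 (94232_at, 6899) and Ccnd2 (1340), and left of them for both Cdk2 probe sets and Gadd45a (252).

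Cyclin D1, encoded by Ccnd1, is the D-type cyclin most closely tied to mitogen signals. Its brighter probe set, 94232_at, had a scaled signal of 6899 in neurospheres, 522 and 1134 in the aggregation and suspension embryoid bodies, and 433 in adherent cells. The neurosphere array was above all 3 R1 arrays, at 8.33 times the embryoid body mean of 828 ± 433 (SD, n = 2) and 15.9 times the adherent signal. The difference in log2(signal + 32) was 3.50 ± 0.38 (SE), with a 95% interval of 2.72 to 4.29 and a limma adjusted p of 6.05e-07. The dimmer Ccnd1 probe set, 94231_at, did not follow it. Its signal was 629 in neurospheres, 479 and 696 in embryoid bodies, and 286 in adherent cells. The neurosphere value lay inside the range of the R1 arrays. Its log2 difference was 0.59 ± 0.45 (SE), with an interval of -0.36 to 1.53 and a limma adjusted p of 0.391.

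The contrast between the Ccnd1 probe sets was tested on the difference of their log2 values on each array. The neurosphere response of 94232_at exceeded that of 94231_at by 2.92 ± 0.53 (SE) on the log2 scale, with a 95% interval of 1.76 to 4.07 and a limma adjusted p of 0.0132. Of 1188 such pairs of probe sets on the array, 39 (3.28%) passed the same test, and the Ccnd1 pair was the only 1 of the 4 member pairs to do so. The call depended on the processing: it held in 2 of 7 alternatives, and the adjusted p ran from 0.00488 to 0.211 while the difference stayed between 2.78 and 3.06. In a 2-group fit without the aggregation array the adjusted p was 0.0582. When the log2 values of both Ccnd1 probe sets were averaged, the neurosphere difference was 2.05. The annotation used gives no position of either probe set within the gene.

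**Figure D2:**
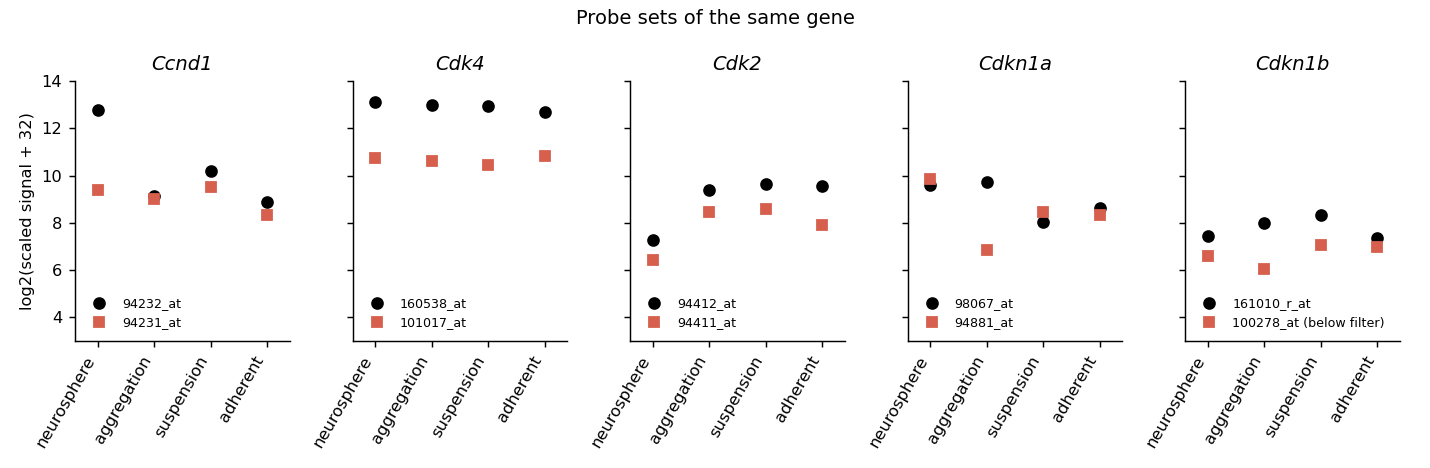
Log2(scaled signal + 32) of the 2 probe sets of Ccnd1, Cdk4, Cdk2, Cdkn1a and Cdkn1b on the 4 arrays, neurospheres leftmost and adherent cells rightmost, 1 point per array and probe set. Of the Ccnd1 probe sets only 94232_at stands high in neurospheres, both Cdk2 probe sets stand low there, and the Cdkn1a probe sets order the embryoid body arrays in opposite ways.

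Ccnd2 encodes cyclin D2, a D-type cyclin of neural progenitors. Its 1 probe set, 97504_at, had a signal of 1340 in neurospheres, 40.0 and 74.9 in embryoid bodies, and 17.8 in adherent cells. The neurosphere array was above all 3 R1 arrays, and it was the only array on which the probe set reached the array median. The R1 values lay between the 10.3 and 25.6 percentiles of their arrays and were not told apart from background, so no ratio of signals is given. The size of the log2 difference depends on the value added before taking log2: it was 4.37 with 32 added, 5.37 with 1 and 3.41 with 100. Limma gave it an adjusted p of 9.61e-04, but the filter was passed through the high array alone, and the fit without a filter gave 0.00599.

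Ccnd3, the third D-type cyclin, differed little. Its probe set 160545_at had a signal of 1019 in neurospheres, 969 and 1029 in embryoid bodies, and 823 in adherent cells. The neurosphere value lay between those of the embryoid body arrays. The log2 difference was 0.16 ± 0.35 (SE), with an interval of -0.56 to 0.88 and a limma adjusted p of 0.778, and it was -0.08 with scaling to the median.

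Cdk4 is the kinase partner of the D-type cyclins. Its probe set 160538_at had a signal of 8943 in neurospheres, 8161 and 7923 in embryoid bodies, and 6609 in adherent cells. The other Cdk4 probe set, 101017_at, had 1657 in neurospheres, 1535 and 1342 in embryoid bodies, and 1773 in adherent cells. Neurospheres were the highest array for 160538_at but lay below adherent cells for 101017_at. The log2 differences were 0.29 (interval -0.24 to 0.83, limma adjusted p 0.453) and 0.05 (-0.58 to 0.69, 0.923). With scaling to the median, the second became -0.20. The difference between the probe sets' responses was 0.24, with an interval of -0.44 to 0.92 and an adjusted p of 0.757.

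The RefSeq window of 250 bases before the Cdk4 transcription start is shown because it holds 4 copies of the E-box CACGTG. These letters are bound by MYC family proteins. The member Mycn was lower in neurospheres, while Myc and Mycl lay above every R1 array there without being called. The build is GRCm38.p6, the strand is that of the gene, and capitals mark the motif.
Cdk4, chr10:127063285-127063534, plus strand: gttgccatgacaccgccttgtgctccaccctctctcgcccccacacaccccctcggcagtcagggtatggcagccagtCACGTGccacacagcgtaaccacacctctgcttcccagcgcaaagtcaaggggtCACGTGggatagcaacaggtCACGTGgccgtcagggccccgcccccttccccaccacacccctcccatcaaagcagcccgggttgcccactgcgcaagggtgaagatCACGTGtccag
The copies lay 6 to 11, 93 to 98, 113 to 118 and 167 to 172 bases before the start. At least 1 copy occurred in 6.02% of 32851 RefSeq windows of this length, and 4 or more occurred in 0.0213%. The motif reads the same on both strands. A match of letters describes the window and shows no binding.

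Cdk2 is the kinase that cyclin E activates at the end of G1. Its brighter probe set, 94412_at, had a signal of 123 in neurospheres, 631 and 763 in embryoid bodies, and 715 in adherent cells. The neurosphere array was below all 3 R1 arrays, at 0.177 of the embryoid body mean of 697 ± 93.1 (SD, n = 2) and 0.172 of the adherent signal. Its signal lay at the 34.8 percentile of that array, so these ratios rest on a low value. The probe set reached the array median on the R1 arrays alone, so it passed the filter through the arrays where it was high. The log2 difference was -2.25 ± 0.46 (SE), with a 95% interval of -3.20 to -1.29 and a limma adjusted p of 0.00114. A fit with the scale of the deposited arrays as a block, chosen after seeing the data, gave -2.10 with an adjusted p of 0.0747, and all 13 other tested alternatives kept the call.

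The dimmer Cdk2 probe set, 94411_at, ran the same way. It had 53.1 in neurospheres, 320 and 348 in embryoid bodies, and 205 in adherent cells. Neurospheres were again below all 3 R1 arrays, but their signal lay at the 18.4 percentile of the array and was not told apart from background. The log2 difference of 94411_at was -1.79 ± 0.69 (SE), with an interval of -3.22 to -0.36, and its limma adjusted p of 0.0722 missed the threshold. The difference was -2.28 with 1 added before log2 and -1.25 with 100 added. The probe sets' responses differed by -0.46, with an interval of -2.17 to 1.26 and an adjusted p of 0.819. The RefSeq window of Cdk2 is shown because it holds a match to an E2F pattern, and E2F factors drive genes of this step of the cycle.
Cdk2, chr10:128705052-128705301, minus strand: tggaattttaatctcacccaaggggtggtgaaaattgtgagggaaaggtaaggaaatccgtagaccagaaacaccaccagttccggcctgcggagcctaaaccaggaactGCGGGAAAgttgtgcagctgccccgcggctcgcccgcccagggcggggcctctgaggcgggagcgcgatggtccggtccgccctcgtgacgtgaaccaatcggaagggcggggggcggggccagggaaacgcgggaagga
The capitals mark the match to TTTNNCGC, read on the opposite strand, at 133 to 140 bases before the start. At least 1 such match occurred in 4.28% of all windows.

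Ccne1 encodes cyclin E1, the partner of Cdk2. Its probe set 103034_at had a signal of 931 in neurospheres, 2027 and 2118 in embryoid bodies, and 1395 in adherent cells. Neurospheres were below all 3 R1 arrays, and the embryoid bodies were above adherent cells. The log2 difference was -0.85 ± 0.30 (SE), with an interval of -1.48 to -0.21 and a limma adjusted p of 0.0547. Against the embryoid bodies alone it was -1.13 with an adjusted p of 0.0165, and with scaling to the median it was -1.10 with 0.00666. Over 14 tested alternatives the adjusted p ran from 0.00666 to 0.346.

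**Figure D3:**
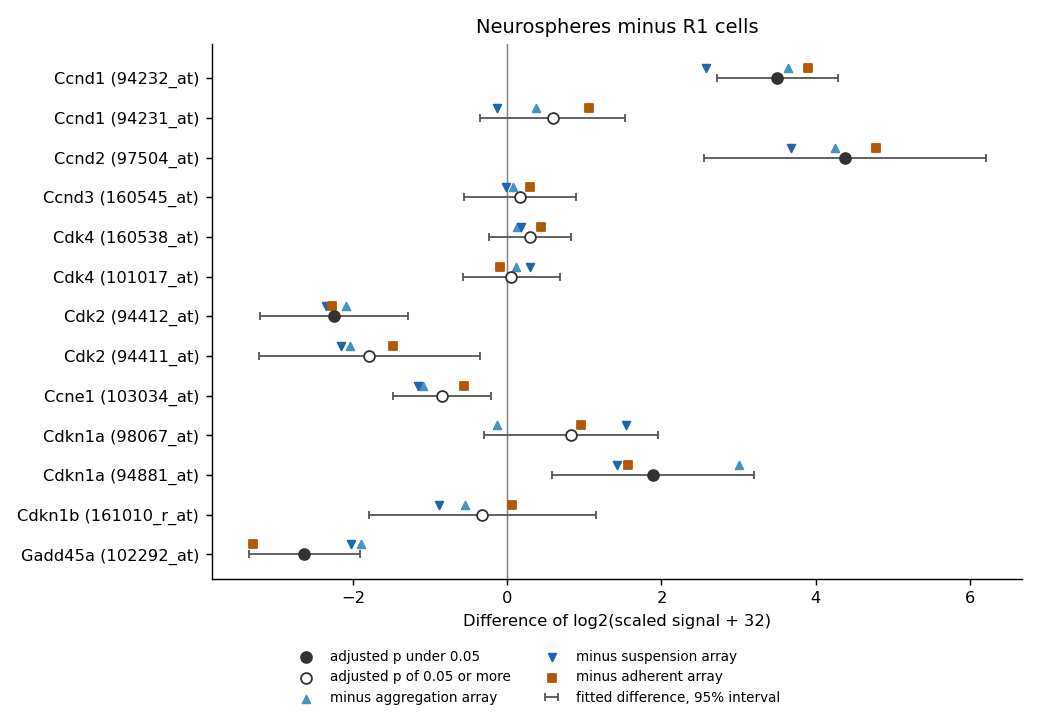
Difference of log2(scaled signal + 32) between neurospheres and R1 cells for the 13 member probe sets that passed the filter, with the 95% interval. Filled circles have an adjusted p under 0.05, and small symbols show neurospheres minus each R1 array. All 3 array differences of Ccnd1 (94232_at) and Ccnd2 lie right of 0 and all 3 of Cdk2 and Gadd45a lie left of it.

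Cdkn1a encodes the p53 target and kinase inhibitor p21, and its probe sets disagreed over the embryoid bodies. Probe set 94881_at had a signal of 902 in neurospheres, 84.1 and 315 in the aggregation and suspension embryoid bodies, and 285 in adherent cells. Probe set 98067_at had 735 in neurospheres, 811 and 231 in embryoid bodies, and 363 in adherent cells. Neurospheres were above all 3 R1 arrays for 94881_at but below the aggregation array for 98067_at. Aggregation minus suspension was -1.58 on the log2 scale for 94881_at and 1.68 for 98067_at, a description of single arrays.

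Against R1 cells, 94881_at rose in neurospheres by 1.89 ± 0.63 (SE) on the log2 scale, with a 95% interval of 0.58 to 3.19 and a limma adjusted p of 0.0368. The difference of 98067_at was 0.83 ± 0.54 (SE), with an interval of -0.30 to 1.96 and an adjusted p of 0.306. The difference between these responses was -1.06, taken as 98067_at minus 94881_at, with an interval of -3.42 to 1.30 and an adjusted p of 0.691. The call of 94881_at held in 7 of 12 tested alternatives, with adjusted p from 0.0159 to 0.171. The fit of 2 groups kept the call with an adjusted p of 0.0397, and without the aggregation array that fit gave 1.49 with 0.168. On the arrays deposited on the low scale, neurospheres minus aggregation was 3.01 for 94881_at and -0.14 for 98067_at.

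The RefSeq window before the upstream Cdkn1a start is shown because it holds 2 matches to the decamer known as the p53 response element repeat unit, searched on both strands and marked in capitals.
Cdkn1a, chr17:29090729-29090978, plus strand: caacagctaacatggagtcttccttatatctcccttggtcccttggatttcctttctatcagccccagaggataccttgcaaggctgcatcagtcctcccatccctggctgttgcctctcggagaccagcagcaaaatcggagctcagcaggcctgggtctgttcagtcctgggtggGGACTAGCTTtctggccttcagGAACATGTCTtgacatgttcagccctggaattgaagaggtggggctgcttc
These matches lay 42 to 51 and 64 to 73 bases before the start. At least 1 match occurred in 7.13% of all windows, and 2 or more in 0.259%. The window before the other Cdkn1a start in the table held none, which says only that these letters are not in that window.

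Cdkn1b encodes the inhibitor p27, and its signals were low throughout. Probe set 161010_r_at had 140 in neurospheres, 220 and 285 in embryoid bodies, and 133 in adherent cells, and it reached the array median on the suspension array alone. Its log2 difference was -0.33 ± 0.71 (SE), with an interval of -1.80 to 1.15 and a limma adjusted p of 0.784. Probe set 100278_at had 64.6 in neurospheres, 33.6 and 99.7 in embryoid bodies, and 94.9 in adherent cells. It was below the median of all 4 arrays and was the 1 member probe set that did not pass the filter. In the fit without a filter its difference was -0.17, with an adjusted p of 0.910.

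Gadd45a encodes a growth arrest protein that binds Cdk1 and PCNA and is induced by DNA damage. Its probe set 102292_at had a signal of 252 in neurospheres, 1025 and 1126 in embryoid bodies, and 2776 in adherent cells. Neurospheres were below all 3 R1 arrays, at 0.235 of the embryoid body mean of 1076 ± 71.2 (SD, n = 2) and 0.0909 of the adherent signal. The log2 difference from R1 cells was -2.63 ± 0.35 (SE), with a 95% interval of -3.35 to -1.91 and a limma adjusted p of 8.00e-06. All 14 tested alternatives kept this call, with adjusted p up to 0.0423. Array by array, neurospheres differed by -1.89 from aggregation, -2.03 from suspension and -3.30 from adherent cells.

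The RefSeq window of Gadd45a is shown because it holds 2 copies of the octamer ATGCAAAT, the letters recognised by POU factors such as Pou5f1, and 1 match to the p53 decamer.
Gadd45a, chr6:67037408-67037657, minus strand: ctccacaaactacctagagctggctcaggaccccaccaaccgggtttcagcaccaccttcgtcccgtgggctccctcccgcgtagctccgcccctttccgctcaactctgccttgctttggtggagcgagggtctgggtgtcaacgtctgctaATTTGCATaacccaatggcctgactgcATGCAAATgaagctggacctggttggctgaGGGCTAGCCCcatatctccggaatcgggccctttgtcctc
The capitals mark, 5′ to 3′, an octamer on the opposite strand at 90 to 97 bases before the start, an octamer on the gene's strand at 63 to 70, and the p53 decamer at 31 to 40. None of these overlap. An octamer occurred in 1.60% of all windows, and 2 or more occurred in 0.0974%. Pou5f1 is among the ES cell markers that were lower in neurospheres, by its probe set 103075_at but not by 161159_r_at. Whether the letters bear on the signal of Gadd45a was not tested. Windows were found for 8 of the 10 genes; that of Trp53 held 1 match to the p53 decamer, and those of Ccne1, Ccnd3 and Cdkn1b held no match to any of the 4 patterns. Ccnd1 and Ccnd2 had no entry.

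The Trp53 transcript itself could not be assigned. The annotation used pairs probe sets 101617_s_at and 101618_r_at with the pseudogene Trp53-ps, a near copy of the gene, and signals of the gene and its copy cannot be told apart. For 101617_s_at the signal was 267 in neurospheres, 390 and 233 in embryoid bodies, and 366 in adherent cells. For 101618_r_at it was 681 in neurospheres, 873 and 666 in embryoid bodies, and 419 in adherent cells. In both, neurospheres lay inside the range of the R1 arrays, and limma's adjusted p was 0.762 and 0.702.

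The next question was how embryoid bodies differ from adherent R1 cells. None of the 13 member probe sets passed limma's adjusted test, and 1 (Gadd45a) had an unadjusted p under 0.05, at 0.00128. Gadd45a was lower in both embryoid body arrays, with 1025 and 1126 against 2776 in adherent cells. Over all 8031 probe sets 28 (0.349%) passed, 21 higher and 7 lower. With scaling to the median the calls were 40 higher and 391 lower. The median difference of all probe sets was 0.10 with the trimmed mean and -0.24 with the median. The median of the member probe sets was 0.28. This comparison shares the R1 arrays with that of neurospheres.

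For Gadd45a the log2 difference of embryoid bodies from adherent cells was -1.34 ± 0.36 (SE), with a 95% interval of -2.10 to -0.59 and a limma adjusted p of 0.0967. With scaling to the median it was -1.71 with an adjusted p of 0.00211. On the arrays deposited on the high scale, suspension minus adherent was -1.28. Over 8 tested alternatives the adjusted p ran from 0.00211 to 0.472. The signal of Gadd45a was thus lowest in neurospheres, higher in embryoid bodies, which were close to each other, and highest in adherent cells.

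Both Ccnd1 probe sets were higher on each embryoid body array than on the adherent array. The log2 difference was 0.79 (interval -0.03 to 1.61, limma adjusted p 0.385) for 94232_at and 0.94 (-0.04 to 1.92, 0.387) for 94231_at. For 94232_at, aggregation exceeded adherent cells by 0.25 and suspension by 1.33, so the size rested on the suspension array. The Ccnd1 probe sets differed in this response by -0.15, with an interval of -1.36 to 1.06 and an adjusted p of 0.956.

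Ccne1 was also above adherent cells on both embryoid body arrays, by 0.56 (interval -0.10 to 1.22, adjusted p 0.451). The difference of Ccnd2 was 0.82 (-1.09 to 2.73, 0.732), between signals near background. That of Ccnd3 was 0.27 (-0.48 to 1.02, 0.779). Cdk4 gave 0.28 (-0.28 to 0.84, 0.680) for 160538_at and -0.30 (-0.96 to 0.36, 0.717) for 101017_at, and the first was -0.09 with scaling to the median, as was that of Ccnd3. The intervals of both Cdk4 probe sets stay within about 1 log2 unit of 0.

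Cdk2 gave -0.04 (-1.04 to 0.96, adjusted p 0.976) for 94412_at and 0.63 (-0.87 to 2.12, 0.738) for 94411_at. The embryoid body arrays lay on either side of adherent cells for 94412_at. Cdkn1a gave 0.25 (-0.92 to 1.43, 0.875) for 98067_at and -0.66 (-2.02 to 0.71, 0.696) for 94881_at, and each changed sign with the embryoid body array used. Cdkn1b gave 0.78 (-0.76 to 2.32, 0.678) for 161010_r_at. None of the 4 member pairs of probe sets differed in this comparison, where 0.0% of the 1188 pairs passed the adjusted limma test and 134 had an unadjusted p under 0.05.

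**Figure D4:**
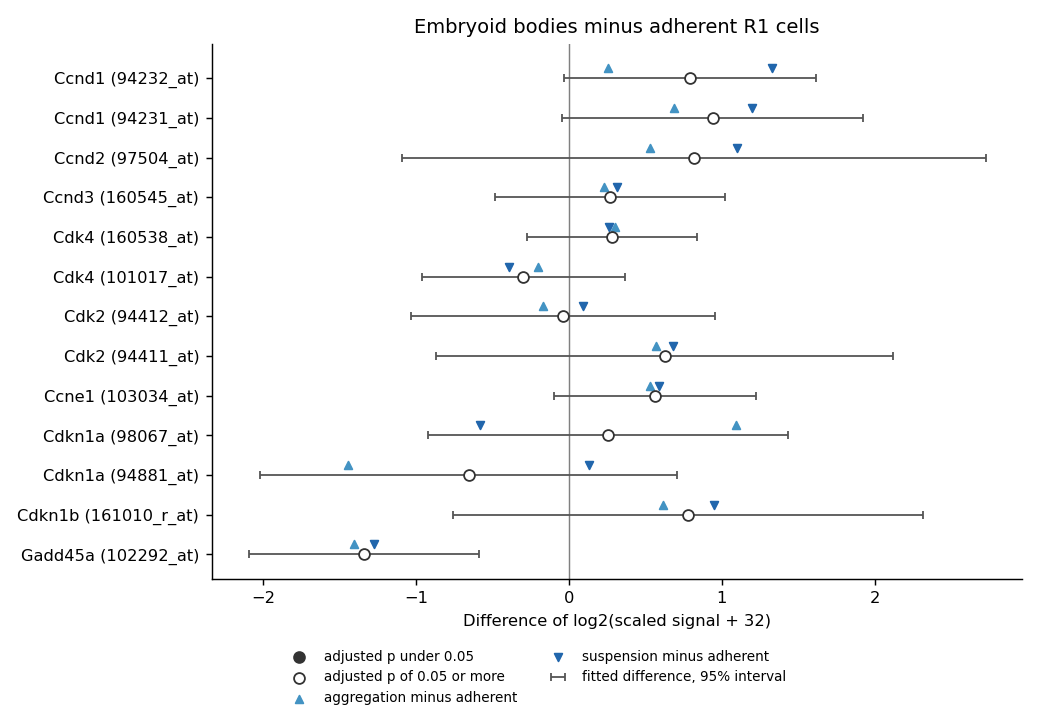
Difference of log2(scaled signal + 32) between embryoid bodies and adherent R1 cells for the same 13 probe sets, with the 95% interval and, as small symbols, each embryoid body array minus the adherent array. All circles are open because none passed the adjusted test, and the interval of Gadd45a (-2.10 to -0.59) alone lies clear of 0.

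Other genes of G1 control were described through 6 lists, as counts of probe sets. Differences are on the log2 scale, and the value in brackets after each is its limma adjusted p. In a list of G1 cyclins, kinases and partners, 1 of 17 probe sets tested rose in neurospheres and 3 fell, against 8.09% and 11.6% of all probe sets, with a median of -0.36 against 0.10 over all. Cdk5, a kinase of postmitotic neurons, had a signal of 1198 in neurospheres, 284 and 535 in embryoid bodies, and 382 in adherent cells, a log2 difference of 1.56 (limma adjusted p 0.0195). Mnat1, an assembly factor of the Cdk-activating kinase, fell by 1.93 for 98979_at (0.00103) and differed by 0.35 for 161557_at (0.633). The Cdk subunits Cks2 and Cks1b fell by 1.12 (0.00469) and 0.92 (0.0176). Cdk6 had no probe set in the annotation used, Ccne2 did not pass the filter, and Ccng1 differed by -0.77 (0.257).

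Among 5 other inhibitors tested, 1 rose and 0 fell (8.09% and 11.6% over all probe sets), with a median of -0.27. Cdkn2c, which inhibits Cdk4 and Cdk6, had 1322 in neurospheres, 823 and 913 in embryoid bodies, and 320 in adherent cells, a log2 difference of 1.27 (adjusted p 0.0196). Neurospheres were above every R1 array for Cdkn2c, but the call rested on the adherent array: the difference was 0.59 (adjusted p 0.349) against the embryoid bodies alone. Cdkn1c, the third gene of the p21 and p27 family, differed by -0.27 (0.700). In the RB and E2F list, 0 of 8 probe sets rose and 2 fell (8.09% and 11.6% over all probe sets), with a median of -0.10. The histone-binding proteins Rbbp4 and Rbbp7 fell by 0.89 (0.0268) and 0.85 (0.0287), while Rb1 differed by -1.34 (0.455), Rbl1 by 1.04 (0.357) and E2f1 by -0.22 (0.813).

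Among 14 probe sets of E2F target genes, 0 rose and 3 fell (8.09% and 11.6% over all probe sets), with a median of -0.35. Mybl2, a transcription factor of the cell cycle, had 394 in neurospheres, 11814 and 8462 in embryoid bodies, and 8674 in adherent cells for 100023_at, and fell by 4.45 on the log2 scale (adjusted p 7.92e-11), while 161160_f_at differed by -0.35 (0.670). The primase subunit Prim2 fell by 2.14 (0.00968) and the polymerase subunit Pola1 fell by 1.06 (0.0478). In the p53 pathway list, 0 of 20 rose and 5 fell (8.09% and 11.6% over all probe sets), with a median of -0.62. Perp, a desmosomal p53 target, fell by 3.02 (2.50e-04), and Gtse1, a mitotic protein that binds p53, fell by 1.81 (1.96e-04). The neurosphere signals of Perp and Prim2 were low, at 58.2 and 79.9 against an array median of 242. Both passed the filter through the R1 arrays alone. Over 13 alternatives the difference ran from -3.56 to -2.35 for Perp and from -2.51 to -1.64 for Prim2. Gadd45b, a relative of Gadd45a, fell by 2.29 for 161666_f_at (0.0395) and differed by -0.48 for 102779_at (0.683). The neurosphere signal of 161666_f_at, 21.6, was below the 10th percentile of its array, and with 100 added its difference was -1.45 (0.0698). Mdm2, the ubiquitin ligase of p53 and itself a p53 target, had 311 in neurospheres, 985 and 1007 in embryoid bodies, and 1245 in adherent cells, and fell by 1.74 (0.00159).

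In the list of mitogen and MYC inputs, 3 of 15 probe sets rose and 4 fell (8.09% and 11.6% over all probe sets), with a median of 0.28. Mxd4, a MAX partner that opposes MYC, rose by 3.28 on the log2 scale (adjusted p 5.49e-05), the AP-1 subunit Jun rose by 2.98 (0.00704) and the Hedgehog receptor component Smo rose by 2.59 (0.0298). Jun and Smo reached the array median on the neurosphere array alone, so they passed the filter through the array where they were high. Likewise Mycn and Gli1, and Mnat1 (98979_at) and Gadd45b (161666_f_at) above, reached it on R1 arrays alone. Mycn, the MYC family member of ES cells and neural precursors, had 36.1 in neurospheres, 2210 and 2549 in embryoid bodies, and 2862 in adherent cells, and fell by 5.28 (1.85e-10). Its neurosphere signal was near the 10th percentile of that array and was not told apart from background, and the difference ran from -6.14 with 1 added to -4.31 with 100 added. The family members Myc and Mycl went the other way, with differences of 1.04 and 1.13, and were not called. Gli1 and Ptch1, both Hedgehog targets, fell by 2.41 (4.42e-04) and, for 104030_at, by 2.12 (7.14e-05). The other Ptch1 probe set, 104031_at, differed by -0.14 (0.853).

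Of the 22 probe sets called in these lists, those of Mybl2 (100023_at), Perp and Mycn kept their calls in all 12 tested alternatives. The fit of 2 groups with all arrays ended 6 calls (Cks1b, Cdkn2c, Rbbp4, Rbbp7, Pola1 and Mdm4). Comparing with the embryoid bodies alone ended 5, those of Cdkn2c, Rbbp4, Rbbp7, Pola1 and Mdm4. The 2-group fit without the aggregation array ended 11, namely Cdk5, Cks1b, Cks2, Cdkn2c, Rbbp4, Rbbp7, Pola1, Prim2, Gadd45b, Mdm4 and Smo. The 2-group fit without the suspension array ended 8, the same ones without Cdk5, Prim2 and Smo. In each of the 6 lists, 0 probe sets passed the adjusted limma test between embryoid bodies and adherent cells, where 0.349% of all probe sets passed.

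**Figure D5:**
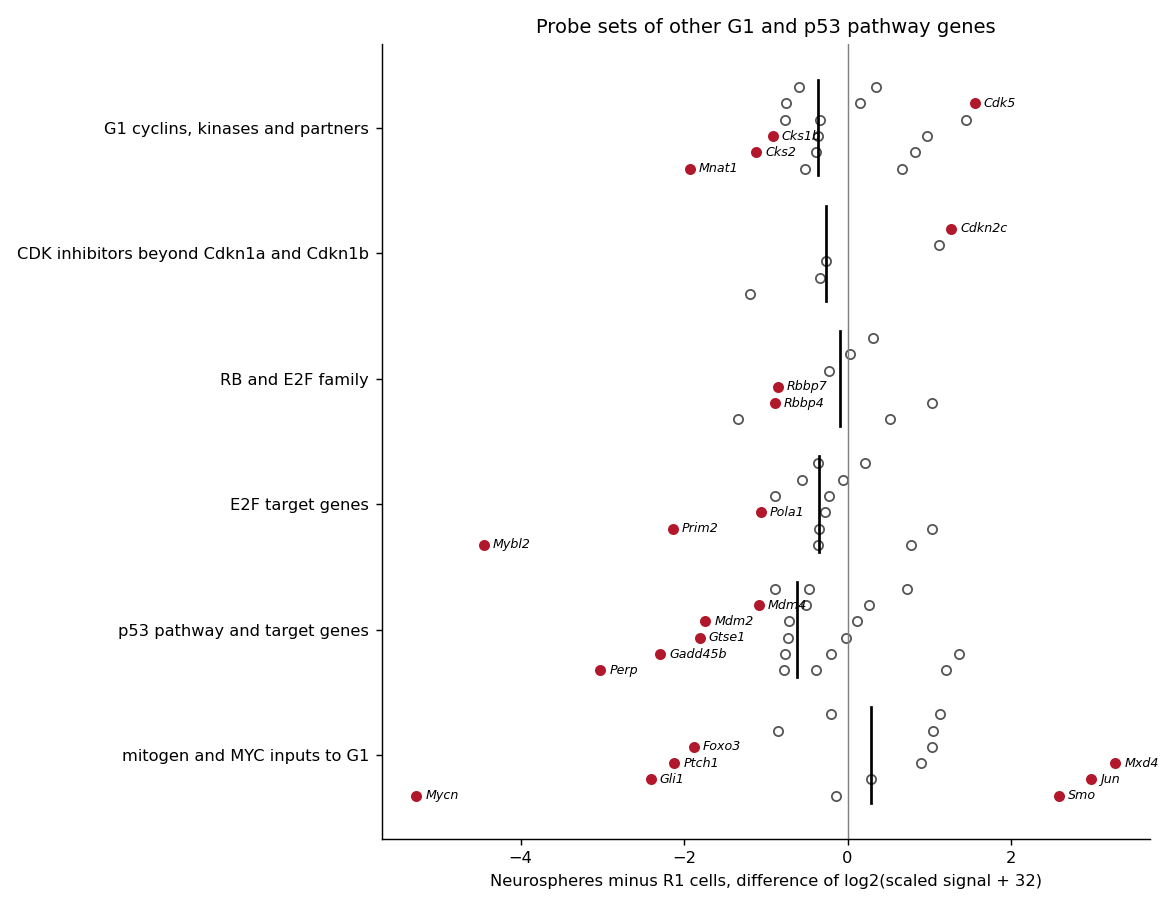
Difference of log2(scaled signal + 32) between neurospheres and R1 cells for each tested probe set of the 6 lists, 1 circle per probe set, filled where limma's adjusted p was under 0.05. Vertical bars are list medians, from -0.62 for the p53 list to 0.28 for the mitogen and MYC list; vertical position within a list carries no value.

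Markers of other cell types that the cultures could hold were summed on each array, over the brightest probe set of each gene, whether or not it passed the filter. A gene was counted as higher or lower if any of its tested probe sets was called. Over all probe sets, 8.09% were higher and 11.6% lower. Summed astrocyte markers were 6956 in neurospheres, 4623 and 3961 in embryoid bodies, and 7665 in adherent cells, with 1 of 4 tested genes higher and 1 lower in neurospheres. Oligodendrocyte markers summed to 2274 in neurospheres, 1717 and 1600 in embryoid bodies, and 888 in adherent cells, with 1 of 4 higher and 0 lower. Neuron markers summed to 7137 in neurospheres, 6606 and 6374 in embryoid bodies, and 4803 in adherent cells, with 0 of 3 higher and 2 lower. Single markers within a list went opposite ways. The astrocyte marker Aldoc had 4279 in neurospheres, 194 and 599 in embryoid bodies, and 88.5 in adherent cells, and rose by 4.34 (adjusted p 2.21e-06), while Gja1 (100064_f_at) had 1896 in neurospheres, 4219 and 2766 in embryoid bodies, and 7346 in adherent cells. The neuronal marker Map2 had 467 in neurospheres, 25.5 and 32.2 in embryoid bodies, and 12.1 in adherent cells, a difference of 3.27 (0.0517). It reached the array median on the neurosphere array alone. Stmn2 fell by 3.26 for 95670_at (8.98e-05) and by 1.92 for 95669_g_at (1.84e-04), while 95668_at differed by 1.36 (0.332). Tubb3 fell by 1.48 for 161612_f_at (0.0410) and differed by 0.70 for 160462_f_at (0.0650). Microglia markers summed to 2313 in neurospheres, 2730 and 2021 in embryoid bodies, and 1901 in adherent cells, with 1 of 3 higher and 1 lower. Fibroblast markers summed to 3472 in neurospheres, 4571 and 4454 in embryoid bodies, and 1673 in adherent cells, with 0 of 5 called in neurospheres. The part of any of these cell types in the cyclin and inhibitor differences was not tested.

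The genes whose patterns were most like those of 4 members were found by the Euclidean distance between mean-centred log2 values over the 4 arrays, among 6001 other genes. For Ccnd1 (94232_at) these were Dhcr7 (0.11), Rgcc (0.23) and Nkain1 (0.25). Dhcr7, a cholesterol synthesis enzyme, had a signal of 1175 in neurospheres, 75.6 and 182 in embryoid bodies, and 52.7 in adherent cells. It thus shared with Ccnd1 the order adherent, aggregation, suspension and neurosphere from low to high. For Ccnd2 they were Dbi (0.46), Gas1 (0.59) and Gria2 (0.63), for Cdk2 (94412_at) Dusp9 (0.0857), Trim25 (0.0893) and Eif1a (0.13), and for Gadd45a Eprs (0.17), Abcb1a (0.19) and Orc5 (0.35). Eprs, a tRNA synthetase, had 91.2 in neurospheres, 485 and 512 in embryoid bodies, and 1392 in adherent cells, the same order as Gadd45a. The likeness rests on 4 arrays.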

How the data were processed

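The authors deposited one intensity value for each probe set, on a linear scale, made with MAS5 per the submitters' processing notes. Its version, settings and scaling target are not stated there. The deposited intensities were scaled here to a trimmed mean of 500 over 12422 non-control probe sets, leaving out 2% at each end, and 32 was added before log2. Genes came from the platform annotation. Probe sets that reached the array median on at least 1 array were kept (8031). One limma fit (limma 3.58.1, R 4.3.3) with an intensity trend held the 3 groups, with 1 residual and 20.5 prior degrees of freedom (10.2 for pairs of probe sets). Neurospheres and adherent cells, with 1 array each, took their spread from the embryoid bodies. Tests were two-sided, with Benjamini-Hochberg adjustment across all probe sets. Pairs took the brightest probe set of a gene minus each other one. In simulated data over 8031 probe sets for the neurosphere comparison, 77 of 100 changes of 2 and 96 of 100 changes of 4 on the log2 scale were recovered, with 14 false calls. The simulated noise of every array was set from the spread between the embryoid body arrays. These rates therefore hold only if neurospheres and adherent cells vary as those arrays do, which was not measured. The members, lists and tests were chosen with earlier results of these data known. All member probe sets were named; of each list, up to 3 called genes each way and a preset few. The number of arrays limits the precision. Promoter windows came from RefSeq (GRCm38.p6). Alternatives changed the scaling, the added value, the filter, the trend, the arrays used, the R1 arrays compared with, the number of groups and the treatment of probe sets of 1 gene.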

Additional observations from a re-analysis of the deposited data

How the results depend on the processing

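Between neurospheres and R1 cells, against 650 higher and 935 lower as reported, there were 218 and 237 without the intensity trend and 212 and 269 with the scale of the deposited arrays as a block. A fit of 2 groups with all arrays gave 436 and 642. Leaving out 1 embryoid body array, which also needs 2 groups, gave 315 to 378 higher and 460 to 515 lower. Members called lower numbered 4 with scaling to the median and 4 against the embryoid bodies alone, where Ccne1 and the dimmer Cdk2 probe set joined, and 1 with the block, which ended the call of Cdk2. Pairs of probe sets that differed fell to 12 with quantile normalization, 13 with 1 added, 18 with 100 added, 2 without a filter and 2 without the trend, and to a range of 11 to 32 with 1 embryoid body array left out, against 39 as reported. Of the member pairs, 0 passed with quantile normalization, 1 added, no filter or no trend, and 0 to 1 passed with 1 embryoid body array left out. Between embryoid bodies and adherent cells, the 21 higher and 7 lower calls became 0 and 0 without a filter, 0 and 0 without the trend, 40 and 391 with scaling to the median, and 1 and 1 with the mean of the probe sets of a gene; quantile normalization gave 2 lower. With scaling to the median 1 member, Gadd45a, was called lower. The cause of these shifts was not tested. Values of single probe sets and pairs that the text names were counted once per alternative. Of these, 617 kept their call status or, where no test was made, stayed within the SE. Some uncalled differences among them changed sign, such as that of Ccnd3 with scaling to the median. A call was lost by 91 (17 of the 22 list calls with the block and 16 without the trend) and gained by 5. Without a test, 21 moved by more than the SE. No paired analysis was possible because the labels carry no replicate numbers; the block above follows the scale of deposit. With 1 array in each of 2 groups, the spread within neurospheres and within adherent cells was not measured, and without detection calls low signals were not separated from background.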

Other observations

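Several other genes of the 6 lists had 2 tested probe sets, and these were set side by side in the same way as the members, after their values were seen. For Mybl2, 100023_at had 394 in neurospheres, 11814 and 8462 in embryoid bodies, and 8674 in adherent cells. The other Mybl2 probe set, 161160_f_at, had 289 in neurospheres, 614 and 453 in embryoid bodies, and 266 in adherent cells. The neurosphere response of 100023_at was below that of 161160_f_at by -4.11 on the log2 scale, with a 95% interval of -5.00 to -3.21 and a limma adjusted p of 2.47e-04 over 1188 pairs. The same difference was -2.27 (interval -3.55 to -0.997, adjusted p 0.0621) for Mnat1, -1.98 (-3.11 to -0.85, 0.0652) for Ptch1, 1.81 (-0.32 to 3.94, 0.371) for Gadd45b and -0.28 (-1.33 to 0.77, 0.819) for Tfdp1. Of these 5 genes, Mybl2 alone passed the threshold.

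Genes of the mitogen response differed between the embryoid body arrays themselves, as single values with no test, picked after their values were seen. Fos, an AP-1 subunit induced by mitogens, had for 160901_at 439 in neurospheres, 197 and 888 in the aggregation and suspension embryoid bodies, and 106 in adherent cells. Egr1, another early response gene, had 1266 in neurospheres, 691 and 1572 in embryoid bodies, and 343 in adherent cells. Both of these probe sets were higher on the suspension array than on the aggregation array, as was Ccnd1 (94232_at) with 1134 against 522. The other Fos probe set, 161716_at, which did not pass the filter, had 154 on the aggregation array and 81.1 on the suspension array. Jun ran the other way, with 198 on the aggregation array and 52.1 on the suspension array.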
